A study of Mus musculus with 3 samples.

Results

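The genes described here encode the enzymes of glycolysis, the pentose phosphate pathway and the tricarboxylic acid (TCA) cycle, with the kinases that control entry of pyruvate into the cycle and the bifunctional enzymes that set the level of fructose-2,6-bisphosphate. They are 52 genes taken by name from a list, out of 55536 annotated genes in the deposited tables. The list was chosen with earlier results of these data known. All 52 were found in the tables by symbol. The symbol Aldoa belonged to more than 1 gene identifier, and the identifier with the higher mean level was used. The members divide into 19 genes of glycolysis with lactate dehydrogenase, 7 of the pentose phosphate pathway, 3 of the fructose-2,6-bisphosphate enzymes, 7 of pyruvate dehydrogenase and its kinases, and 16 of the TCA cycle and reactions linked to it.

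Total RNA was sequenced from CD3 T cells of the spleen of female mice of the hybrid strain B6CASTF1/J, with C57BL/6 as the maternal and CAST Eij as the paternal strain, at 66 days of age, with no treatment named. The 3 libraries form 1 group, were made from 300 ng of RNA each with synthetic spike-in transcripts, and are called replicates 1, 2 and 3. The labels list 3 biosample records but 1 donor record. SDs and p-values therefore describe how these 3 preparations vary, and that variation may be technical. No treatment can be compared within 1 group, and the comparisons are between isozymes within a library, between transcript entries of a gene, and between the libraries.

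Glycolysis splits glucose into pyruvate in the cytosol, the pentose phosphate pathway branches from its first intermediate to make NADPH and ribose, and the TCA cycle oxidises acetyl-CoA in mitochondria. Resting T cells are known for a low glycolytic rate and a reliance on mitochondrial oxidation, and activation is known to raise the glucose transporter, hexokinase and lactate production. Many of the steps can be carried out by several isozymes encoded by separate genes, and pyruvate kinase of muscle type makes its M1 and M2 forms from 1 gene, Pkm, by splicing in one or the other of a pair of exons. M1 is known as the form of muscle and brain with constant high activity, and M2 as the form that is regulated by fructose-1,6-bisphosphate and common in dividing and blood cells.

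That pair of exons is shown because the largest part of the Pkm result rests on telling them apart. Pkm (ENSMUSG00000032294.17) lies on mm10 chr9:59656368-59679375, plus strand. Both exons are 167 bases long. They differ at 64 positions, which are in capitals, are identical at 61.7% of positions and are separated by an intron of 372 bases. The sequences were read from GENCODE M21 transcripts, the M1 exon at chr9:59675029-59675195 from entry Pkm-202 and the M2 exon at chr9:59675568-59675734 from entry Pkm-201.
M1 exon: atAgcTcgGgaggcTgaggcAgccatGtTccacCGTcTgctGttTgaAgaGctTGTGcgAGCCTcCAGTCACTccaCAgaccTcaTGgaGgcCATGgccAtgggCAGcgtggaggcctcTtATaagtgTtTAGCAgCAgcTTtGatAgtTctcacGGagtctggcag
M2 exon: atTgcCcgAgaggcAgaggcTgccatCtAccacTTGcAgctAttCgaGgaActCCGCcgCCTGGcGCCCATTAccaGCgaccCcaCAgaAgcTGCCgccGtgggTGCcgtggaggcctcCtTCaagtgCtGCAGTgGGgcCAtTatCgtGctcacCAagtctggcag
The differing bases lie along most of the exon, so that a read inside it can be assigned to one of the pair.

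The libraries held 16.9, 14.99 and 16.2 M estimated counts over genes. The 52 members together took 1738, 1736 and 1652 TPM, or 1709 ± 49.3 TPM (a measure of transcript abundance scaled by effective length and library depth; mean ± SD, n = 3, as throughout), which is 0.298% ± 0.00454 of the estimated counts. Nuclear genes coding for proteins held 34.4% ± 0.871 of all TPM. All 12 core T-cell markers, such as Cd3e and Trac, exceeded 10 TPM in every library, and they summed to 3450, 3406 and 3183 TPM. Markers of B cells summed to between 11.8 and 20.5 TPM, of monocytes and macrophages to between 31.2 and 37.1, of neutrophils to between 7.92 and 10.04, of natural killer cells to between 19.9 and 25.2, of platelets to between 3.84 and 6.59, and of erythroid cells to between 43.2 and 97.9. Of the 46 markers in these other lists, 3 exceeded 10 TPM in every library, and none was at 0. In bulk RNA, fewer cells of a type and less RNA per cell cannot be told apart.

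Most of the pathway was present at moderate to high levels. In all 3 libraries 36 of the 52 members reached 10 TPM, beside 10.9% of all annotated genes and 25.4% of nuclear protein-coding genes that did so. The median member had 18.99 TPM, and the typical member stood at the 82.8th percentile of nuclear protein-coding genes. The highest were Gapdh at 161 ± 14.1 TPM, Pkm at 119 ± 6.10 TPM, Aldoa at 105 ± 2.67 TPM, Ldha at 103 ± 3.64 TPM and Gpi1 at 96.9 ± 4.32 TPM, all of glycolysis. The lowest were Hk3, Hk2, Eno2, Idh1 and Pfkm. Each of them had another isozyme gene at a higher level, which for the cytosolic Idh1 was that of the mitochondrial form, Idh2.

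**Figure D1:**
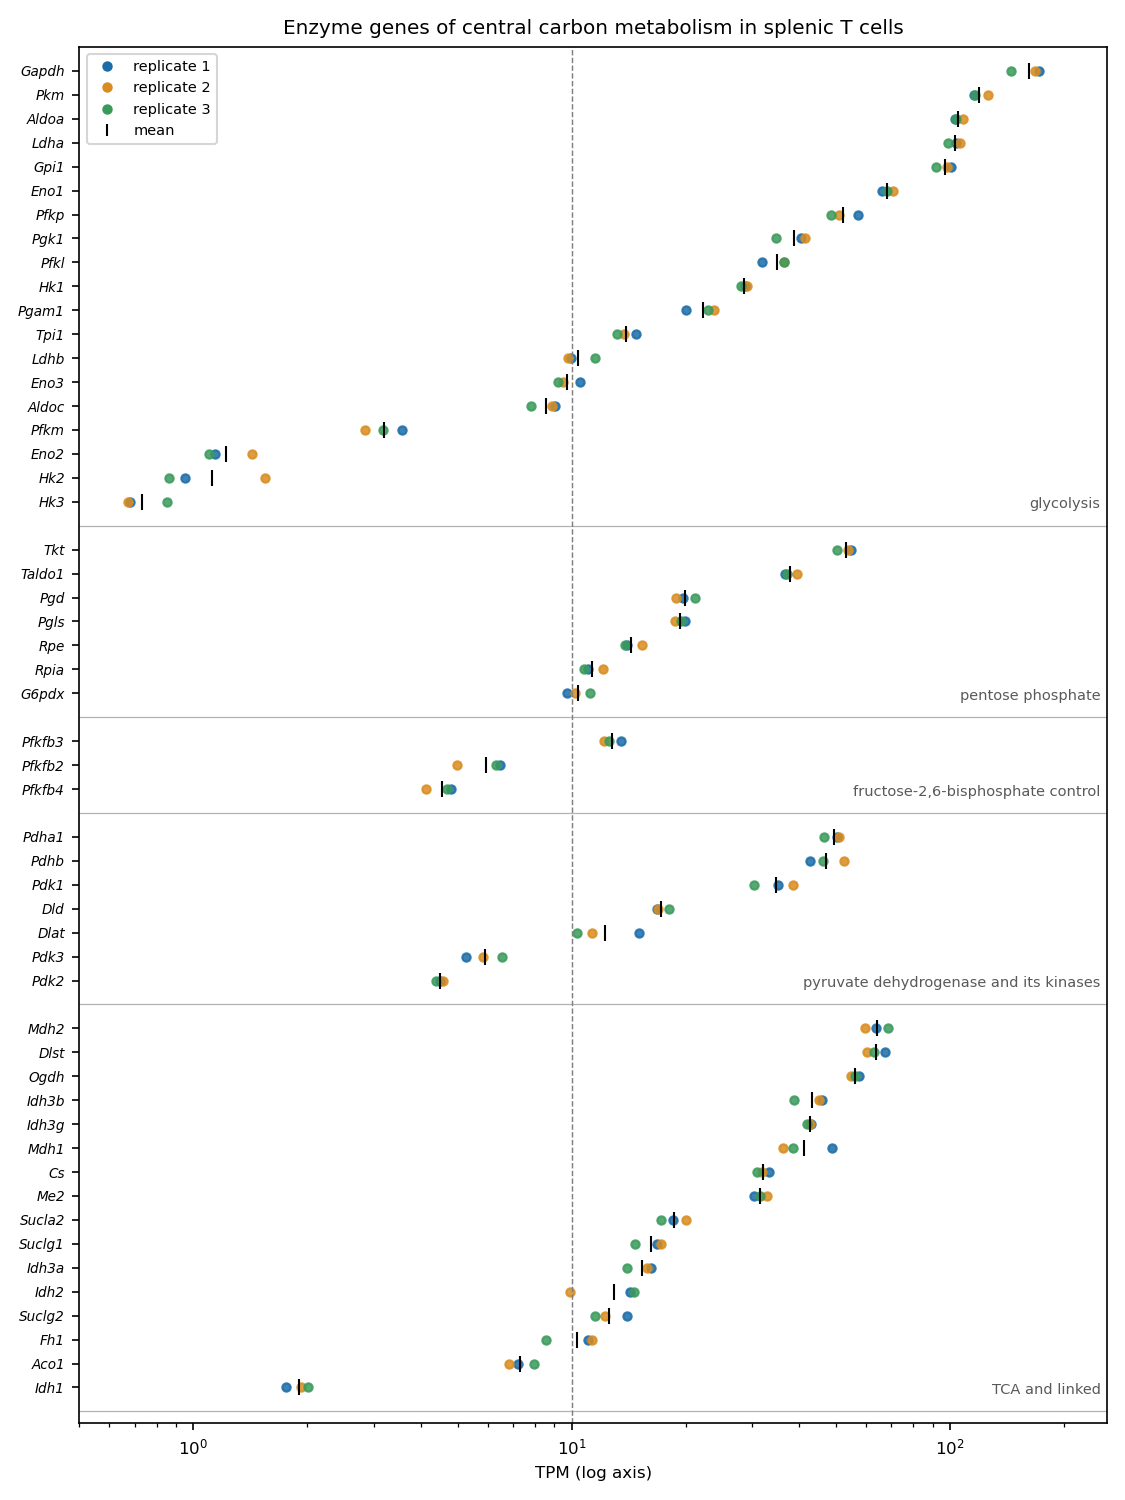
Level of each of the 52 enzyme genes in TPM on a log axis, with 1 point per library, a bar at the mean and a dashed line at 10 TPM, grouped by pathway. The 5 highest genes belong to glycolysis, and each of the 7 pentose phosphate genes has a mean above 10 TPM.

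Hexokinases phosphorylate glucose on entry. Hk1, the form bound to mitochondria in most tissues (mm10 chr10:62268855-62379908, minus strand), had 28.7, 29.1 and 28.1 TPM in replicates 1, 2 and 3. Hk2, the form known to be induced by growth signals, had 0.95, 1.55 and 0.86 TPM, and Hk3, known from myeloid cells, had 0.68, 0.67 and 0.85 TPM. The ranges of Hk1 and the other two did not overlap. Hk1 held 93.9% ± 0.900 of the TPM of the 3 genes, and its log2 ratio to Hk2 was 4.73 ± 0.43, higher in 3 of 3 libraries (exact two-sided sign-flip permutation test, p = 0.25, adjusted p = 0.261). With 3 libraries this test cannot give a p below 0.25, so none of the 23 isozyme or subunit pairs tested could pass a threshold of 0.05. The level of Hk2 rested on a mean of 57.3 estimated counts and that of Hk3 on 21.7. The part of the myeloid cells, whose marker levels are given above, in the Hk3 level was not tested.

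Glucose-6-phosphate isomerase, encoded by Gpi1 alone, had 100.4, 98.2 and 92.0 TPM. Phosphofructokinase, the committed step of glycolysis, was shared by platelet and liver forms. Pfkp, the platelet form, had 57.1, 51.0 and 48.5 TPM, and Pfkl, the liver form, had 31.9, 36.4 and 36.4 TPM. Pfkm, the muscle form, had 3.57, 2.85 and 3.18 TPM. Their shares were 57.7% ± 3.46, 38.7% ± 3.69 and 3.54% ± 0.354, and Pfkp exceeded Pfkl in 3 of 3 libraries by 0.58 ± 0.23 on the log2 scale (exact sign-flip p = 0.25). In the second quantification, a separately computed set of deposited transcript values, the log2 ratio was 0.11, with Pfkp at 75.3, 64.4 and 63.5 TPM and Pfkl at 59.6, 63.7 and 65.0 TPM, so that Pfkl was the higher in replicate 3. Over coding entries alone Pfkm had 10.8% ± 1.43 of the family, since 100% of its TPM lay in coding entries, against 31.6% ± 4.48 of that of Pfkp and 29.3% ± 3.93 of that of Pfkl.

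Aldolase splits fructose-1,6-bisphosphate. Aldoa had 103, 108 and 104 TPM and Aldoc, the form known from brain, had 9.02, 8.88 and 7.80 TPM, so that Aldoa held 92.5% ± 0.522. Triosephosphate isomerase, encoded by Tpi1 (mm10 chr6:124810586-124814296, minus strand), interconverts the products. Tpi1 had 14.8, 13.7 and 13.2 TPM, the lowest summed level of the 11 steps from hexokinase to lactate dehydrogenase.

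In the lower part of glycolysis, Gapdh, which oxidises glyceraldehyde-3-phosphate, had 172, 167 and 145 TPM, lowest in replicate 3. Pgk1, the first step that yields ATP, had 40.3, 41.5 and 34.6 TPM, and Pgam1, which moves the phosphate group, had 20.1, 23.8 and 22.9 TPM. Eno1, the ubiquitous enolase, had 65.9, 70.8 and 68.2 TPM, against 10.5, 9.49 and 9.19 TPM of the muscle form Eno3 and 1.14, 1.43 and 1.10 TPM of the neuronal form Eno2. Eno1 held 86.2% ± 1.06 of enolase TPM and Eno3 12.3% ± 1.11. At the end of the pathway Ldha, whose subunit favours lactate production, had 104, 106 and 99.0 TPM, and Ldhb, whose subunit favours the reverse reaction, had 9.95, 9.75 and 11.6 TPM. Ldha held 90.8% ± 1.09 of lactate dehydrogenase TPM, a log2 ratio of 3.31 ± 0.18, higher in 3 of 3 libraries (exact sign-flip p = 0.25).

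**Figure D2:**
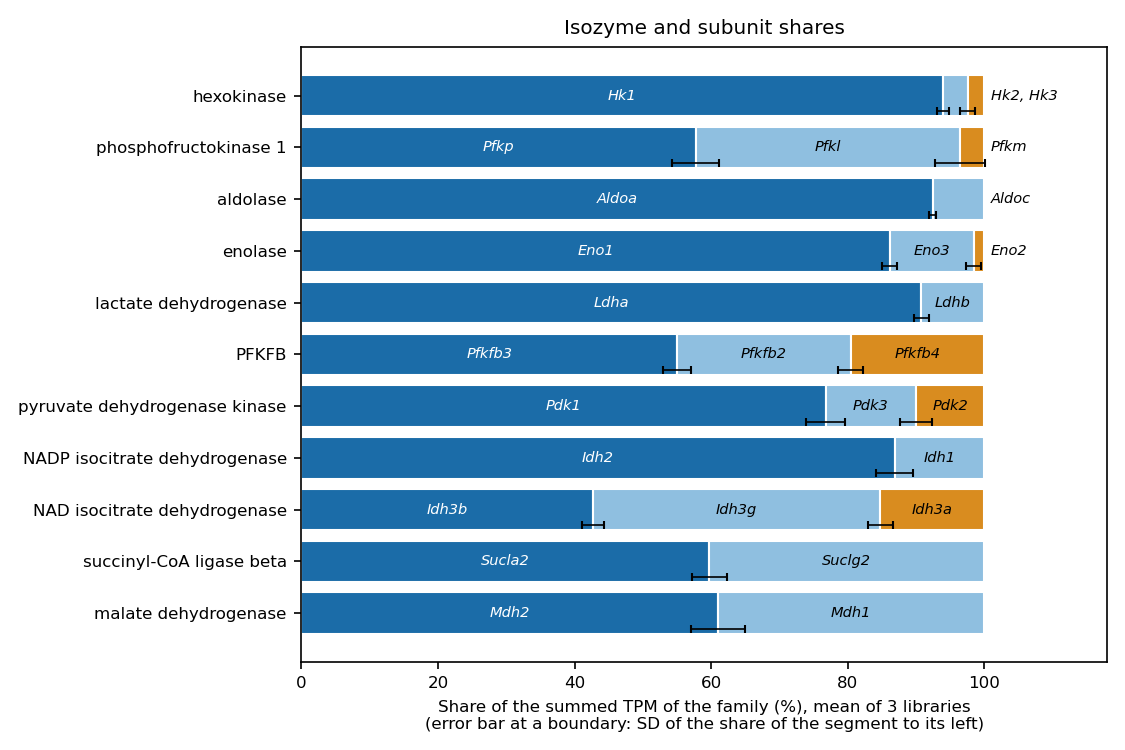
Share of the summed TPM of each of 11 families held by each member, in percent, mean of 3 libraries; error bars at a boundary are the SD of the share of the segment to its left. Hk1, Aldoa, Ldha, Idh2 and Eno1 each hold more than 86% of their family, while Pfkp and Pfkl hold 57.7% and 38.7% of theirs, and Idh3b and Idh3g 42.7% and 42.1%.

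The gene Pkm had 115, 126 and 116 TPM. The M2 entry, Pkm-201, had 90.4, 89.1 and 84.8 TPM. Entries with the M1 exon, Pkm-202 and the intron-retaining Pkm-203, had 3.54, 6.79 and 4.77 TPM together. M2 was higher in every library, with no overlap. Of the TPM of entries that hold either exon, M2 took 96.2%, 92.9% and 94.7%, or 94.6% ± 1.65. In the second quantification the M2 share was 94.1% ± 1.91. Counts not divided by length gave 95.7% ± 1.14 and coding entries alone 95.0% ± 1.20. A further 26.2 ± 4.42 TPM, 21.9% ± 2.82 of the gene, lay in entries with neither exon. These were the intron-retaining entry Pkm-205 at 7.83 ± 0.695 TPM and 5 coding entries of at most 1017 bases, and they say nothing on M1 against M2. Reads were assigned to entries by each quantification, and reads across the exon junctions were not analysed here.

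**Figure D3:**
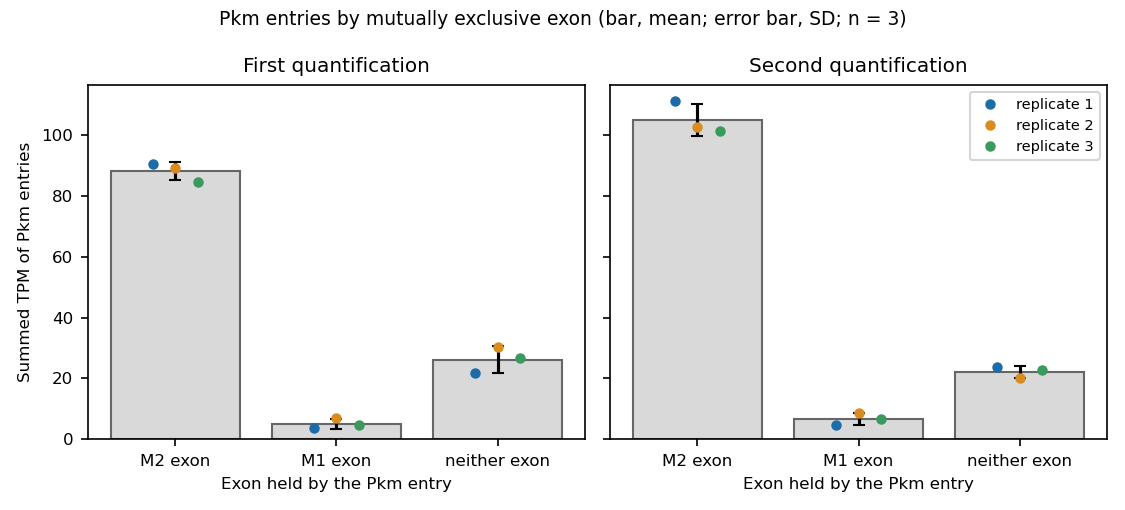
Summed TPM of Pkm entries that hold the M2 exon, the M1 exon or neither, in the first and second quantification; bars are means, error bars SDs and points the 3 libraries. M2 entries stand at 85 to 111 TPM in every library and M1 entries below 9 TPM.

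The regulators known to set this choice were abundant. Ptbp1, Hnrnpa1 and Hnrnpa2b1, whose proteins are known to repress the M1 exon, had 232 ± 16.5, 184 ± 5.67 and 311 ± 11.0 TPM. Srsf3, known to favour the M2 exon, had 150.03 ± 4.86 TPM. Each of these 4 levels is above that of Pkm itself, which describes the RNA and not the activity of the proteins. The part of these 4 genes in the M2 share was not tested.

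Summed by step, the levels did not follow the order of the pathway. Glyceraldehyde-3-phosphate dehydrogenase was highest at 161 ± 14.1 TPM and triosephosphate isomerase lowest at 13.9 ± 0.833 TPM, with hexokinase at 30.5 ± 0.791 TPM and phosphoglycerate mutase at 22.3 ± 1.94 TPM next to it. Those 3 low steps kept the 3 lowest ranks under the 5 measures computed, which were TPM of the first and second quantification, counts per kilobase of the longest coding entry, TPM of coding entries alone, and TPM with near-identical copies added. The top of the order did not hold. Glyceraldehyde-3-phosphate dehydrogenase fell to rank 3 in counts per kilobase, at 95.0 ± 6.23, and to rank 5 over coding entries alone, at 41.8 ± 4.91 TPM. Pyruvate kinase then had rank 1 by both, at 103 ± 2.74 and 111 ± 5.81 TPM. Enolase was at rank 7 by the first quantification and rank 2 by the second.

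**Figure D4:**
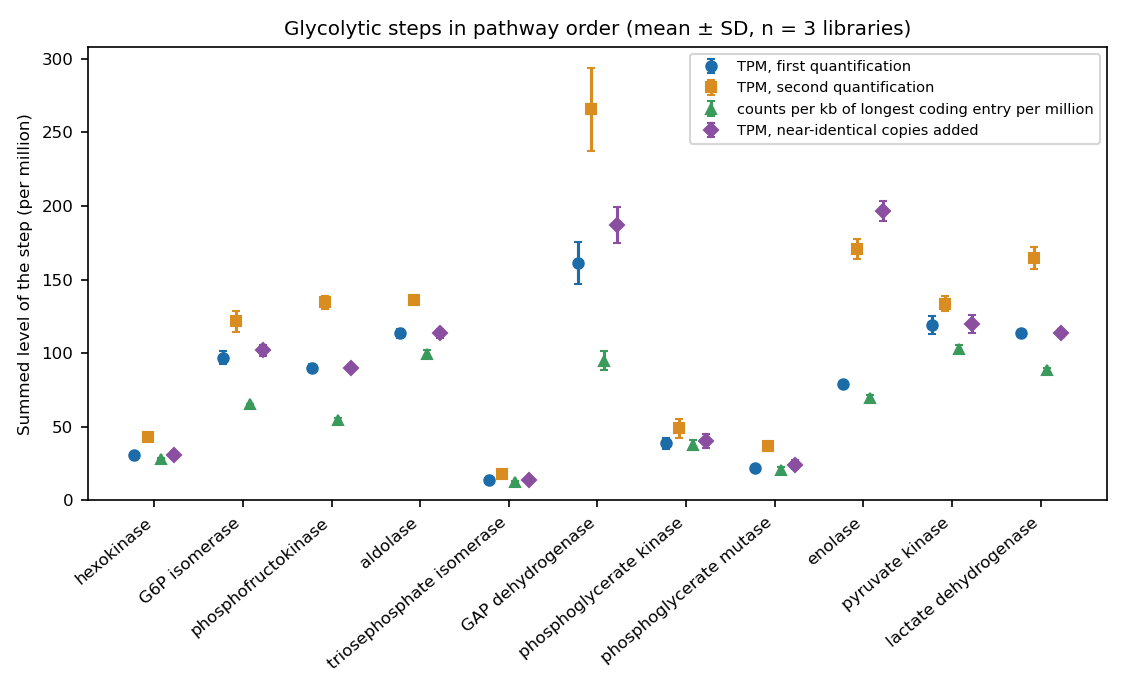
Summed level of the genes of each of 11 glycolytic steps in pathway order by 4 measures (TPM, or counts per kilobase scaled to library size), mean and SD of 3 libraries. Triosephosphate isomerase is lowest by each measure shown, while enolase moves between 69.3 and 197 and glyceraldehyde-3-phosphate dehydrogenase between 95.0 and 266 according to the measure.

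Some of these shifts coincide with near-identical copies elsewhere in the genome. At a minimum identity of 90% over at least 50% of the coding sequence, 17 members had 1 or more copies. Eno1 (mm10 chr4:150236721-150248879, plus strand) shares 99.6% of its coding bases with the pseudogene Gm4735 (chr2:80837141-80838442) and 99.4% with the gene Eno1b. Against 68.3 ± 2.43 TPM of Eno1, Eno1b had 78.2 ± 1.85 TPM and Gm4735 had 39.1 ± 2.94 TPM. In the second quantification Eno1 had 157 ± 8.23 TPM, Eno1b 66.4 ± 1.87 TPM and Gm4735 41.5 ± 2.63 TPM. By the first quantification enolase is therefore 79.3 ± 2.15 TPM without the copies and 197 ± 6.77 TPM with them, which would give it rank 1 there. Step levels and ranks with copies added were not computed in the second quantification. Which locus the reads of Eno1 and its copies came from cannot be told from the tables.

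Gapdh had 160 such copies, which together held 25.7 TPM in the first quantification. The largest was Gm14760 on chromosome X at 16.8 ± 2.24 TPM, and it was at 0 in the second quantification. The second placed 85.6 ± 5.50 TPM on another copy, Gm7336 on chromosome 7, which had 0.823 ± 0.924 TPM in the first. Gapdh itself had 266 ± 28.2 TPM in the second quantification. Gm7336 is identical to Gapdh over the 94.4% of the coding sequence that it covers. Copies of Gpi1, Pgam1, Suclg2, Taldo1 and Pgk1 held between 1.30 and 5 TPM, and those of the other 10 members at most 0.443 TPM. Relative to the median ratio of the quantifications over protein-coding genes of at least 10 TPM, 1.30, only Eno1 (1.76 times) among the 40 members with a mean of 10 TPM or more was over 1.5 times higher in the second, beside 1.82% of such genes. None of the 40 was lower than that ratio divided by 1.5, beside 1.33% of genes. These levels of Eno1 and Gapdh, and shares that use them, are uncertain to this extent.

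In the oxidative part of the pentose phosphate pathway the first enzyme was the lowest. G6pdx, which commits glucose-6-phosphate to the pathway and makes its first NADPH, had 9.72, 10.2 and 11.2 TPM. Pgls, the lactonase that follows, had 19.4 ± 0.591 TPM, and Pgd, which makes the second NADPH and ribulose-5-phosphate, had 19.9 ± 1.16 TPM, both above G6pdx in every library with no overlap. The sugar isomerase Rpia and epimerase Rpe had 11.3 ± 0.671 and 14.4 ± 0.819 TPM. By TPM over all entries, the enzymes that pass carbon back to glycolysis were higher. Tkt, transketolase, had 54.9, 53.6 and 50.4 TPM, and Taldo1, transaldolase, had 36.7, 39.5 and 37.0 TPM, both above each of the other 5 genes in every library. The high level of Tkt lay mostly outside its coding entries, as given below. Its main coding entry, Tkt-201, had 4.82 ± 1.32 TPM, below the main coding entry of G6pdx, G6pdx-201, at 9.02 ± 0.642 TPM. That of Taldo1, Taldo1-201, stayed above both at 35.9 ± 1.05 TPM.

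Phosphofructokinase is activated by fructose-2,6-bisphosphate, which the Pfkfb enzymes make and remove. Pfkfb3, whose protein strongly favours synthesis, had 13.5, 12.2 and 12.5 TPM. Pfkfb2 had 6.47, 4.97 and 6.32 TPM and Pfkfb4 had 4.80, 4.13 and 4.68 TPM. Pfkfb3 held 55.0% ± 2.04 of the TPM of the 3 genes and was higher than each of the others in 3 of 3 libraries, by 1.12 ± 0.16 and 1.49 ± 0.07 on the log2 scale (exact sign-flip p = 0.25 for each).

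Pyruvate dehydrogenase converts pyruvate to acetyl-CoA, and its kinases switch it off. By TPM of the first quantification over all entries, the ranges of the E1 subunit genes overlapped. Pdha1 had 50.4, 51.0 and 46.5 TPM and Pdhb 42.6, 52.4 and 46.3 TPM. In the second quantification Pdha1 was higher without overlap, at 72.4, 68.5 and 68.3 TPM against 61.6, 61.5 and 57.8 TPM. The coding entries had that order too, Pdha1-201 at 28.6 ± 1.12 TPM and Pdhb-201 at 22.2 ± 1.97 TPM. Counts per kilobase of the longest coding entry gave the reverse, 32.3 ± 1.12 for Pdha1 and 44.3 ± 3.17 for Pdhb. The E2 gene Dlat had 15.03, 11.3 and 10.4 TPM over all entries, high in replicate 1. Its coding entry Dlat-201 was even, at 5.50, 5.75 and 5.55 TPM, and the processed transcript Dlat-202 had 5.38, 1.24 and 0 TPM. The E3 gene Dld, whose protein also serves oxoglutarate dehydrogenase, had 16.8, 16.9 and 18.1 TPM. Of the kinases, Pdk1, known as a target of hypoxia signalling, had 35.02, 38.4 and 30.4 TPM. Pdk3 had 5.27, 5.83 and 6.56 TPM and Pdk2 had 4.49, 4.57 and 4.38 TPM. Pdk1 held 76.8% ± 2.86 of kinase TPM. Over coding entries alone its share was 54.5% ± 1.97 and in counts per kilobase of the longest coding entry 67.5% ± 1.36, so that it led by each measure but by a smaller margin. The fourth kinase gene, Pdk4, which is known from fasting muscle and liver, had a count of 0 in all 3 libraries of the first quantification, which allows up to 2.00e-05% of the counts of the shallowest one (an upper limit of 3 counts, for counting error only).

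In the TCA cycle, Cs, which joins acetyl-CoA to oxaloacetate, had 33.2, 31.8 and 30.9 TPM. The cytosolic aconitase Aco1, also an iron-sensing RNA-binding protein, had 7.32 ± 0.569 TPM. The NAD-dependent isocitrate dehydrogenase is built from a catalytic alpha and from beta and gamma subunits. Idh3b had 45.8, 45.1 and 38.7 TPM and Idh3g had 42.9, 42.8 and 42.0 TPM. By TPM over all entries these 2 did not differ beyond their spread, with a log2 ratio of 0.02 ± 0.12, positive in 2 of 3 libraries (exact sign-flip p = 1). The order depended on the measure. The ratio was negative in the second quantification (-0.16) and per kilobase (-0.19), while over coding entries alone Idh3b held 51.4% ± 1.48 of the family and Idh3g 38.5% ± 2.34. The catalytic Idh3a had 16.2, 15.8 and 14.04 TPM, below both in every library. Among the NADP-dependent enzymes, the mitochondrial Idh2 had 14.2, 9.92 and 14.6 TPM, low in replicate 2, and the cytosolic Idh1 had 1.76, 1.92 and 2.01 TPM. Idh2 held 86.9% ± 2.74 of that pair. Its leading entry, the coding Idh2-201, was even across replicates 1, 2 and 3, at 7.76, 7.26 and 7.55 TPM.

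The oxoglutarate dehydrogenase complex was among the higher parts of the cycle, with the E1 gene Ogdh at 57.4, 54.8 and 55.9 TPM and the E2 gene Dlst at 67.2, 60.5 and 63.1 TPM. Most of the Dlst level lay outside its coding entry Dlst-201, which had 16.6 ± 2.61 TPM, as given below. By TPM over all entries, succinyl-CoA ligase was lower. Its alpha subunit gene Suclg1 had 16.2 ± 1.35 TPM, the beta subunit of the ATP-forming enzyme, Sucla2, had 18.5, 20.1 and 17.3 TPM, and that of the GTP-forming enzyme, Suclg2, had 13.97, 12.3 and 11.5 TPM. Sucla2 held 59.7% ± 2.56 of the beta subunits and was higher in 3 of 3 libraries, by 0.57 ± 0.15 on the log2 scale (exact sign-flip p = 0.25). In CPM, scaled counts not divided by length the log2 ratio was -0.036. Fh1, fumarase, had 11.1, 11.3 and 8.55 TPM. Malate dehydrogenase in mitochondria, Mdh2, had 63.6, 59.8 and 68.5 TPM, and the cytosolic form, Mdh1, had 48.7, 36.1 and 38.4 TPM, high in replicate 1. Mdh2 held 61.0% ± 3.91 of that pair by TPM, 71.2% ± 2.15 by counts per kilobase and 51.5% ± 3.89 over coding entries alone, where the lead was within the spread between libraries. Me2, the mitochondrial malic enzyme that makes pyruvate from malate, had 30.4, 32.8 and 31.5 TPM. The genes of the 2 other malic enzymes, Me1 and Me3, had at most 1 count in a library of the first quantification. In the second quantification Me3 had a mean of 1.11 TPM and Me1 had 0.

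By block, the median log2(TPM + 1) was 4.89 ± 0.03 in glycolysis, 4.65 ± 0.06 in the TCA cycle, 4.34 ± 0.03 in the pentose phosphate pathway, 4.19 ± 0.06 in pyruvate dehydrogenase and its kinases and 2.78 ± 0.18 in the fructose-2,6-bisphosphate enzymes. The members at 10 TPM in all libraries were 12 of 19, 12 of 16, 6 of 7, 5 of 7 and 1 of 3 in that order. The TCA cycle and the pentose phosphate pathway changed places in counts per kilobase of the longest coding entry. Block levels over coding entries alone were not computed.

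In total RNA a gene level includes entries that code for no protein, such as intron-retaining and processed transcripts. Over the 52 members the median share of TPM in coding entries was 73.3%, beside 69.2% over nuclear protein-coding genes of at least 10 TPM. Of the 40 members with a mean of 10 TPM or more, 11 had under 50% in coding entries, against 24.6% of such genes. In both quantifications 9 of the 40 did, against 20.5%. These 9 were Gpi1, Pfkl, Pfkp, Rpe, Tkt, Dlat, Pdk1, Idh3a and Dlst. At the other end, Hk1, Aldoa, Tpi1, Pgk1, Pgam1, Pkm, Ldha, Ldhb, Taldo1 and Cs had over 90% in the first quantification. The shares of the 40 members are thus near those of all genes at this level.

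Tkt (mm10 chr14:30548359-30574720, plus strand) had the lowest coding share, 13.4% ± 5.64 in the first and 5.52% ± 1.44 in the second quantification. Its leading entry was Tkt-209, a processed transcript of 1962 bases with 29.5, 29.3 and 32.6 TPM, which took 57.7% ± 6.05 of the gene in the first and 59.4% ± 1.35 in the second. The main coding entry, Tkt-201, had 5.20, 5.90 and 3.35 TPM. In Dlst the coding entry Dlst-201 held 26.1% ± 3.71 of TPM, and the largest of its 12 other entries, Dlst-211, held 12.6% ± 3.35. In Pdk1 the coding entry Pdk1-201 held 31.5% ± 1.30 and the processed transcript Pdk1-208, of 2972 bases, 23.2% ± 3.47. In Pfkp the longest entry shown, the intron-retaining Pfkp-212 of 8681 bases, held 13.4% ± 0.221 of TPM from 989 of 2347 estimated counts, the largest count of any Pfkp entry.

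Gapdh (mm10 chr6:125161715-125166467, minus strand) was the member whose entries depended most on the quantification. In the first, the processed transcript Gapdh-208 of 483 bases had 104, 94.1 and 89.7 TPM, or 59.5% ± 2.88 of the gene, and the coding share was 25.9% ± 1.32. In the second, Gapdh-208 held 0.0673% ± 0.117, the coding entries Gapdh-203 and Gapdh-207 held 43.7% ± 4.06 and 41.7% ± 0.946, and the coding share was 88.7% ± 6.57. Hk1 had another leading entry in each quantification, Hk1-202 at 61.6% ± 6.57 in the first and Hk1-201 at 35.2% ± 3.51 in the second. Over the 40 members the same entry led in both for 32, beside 74.3% of protein-coding genes at this level, and the leading entry was non-coding in the first for 2, Gapdh and Tkt, beside 14.7%.

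**Figure D5:**
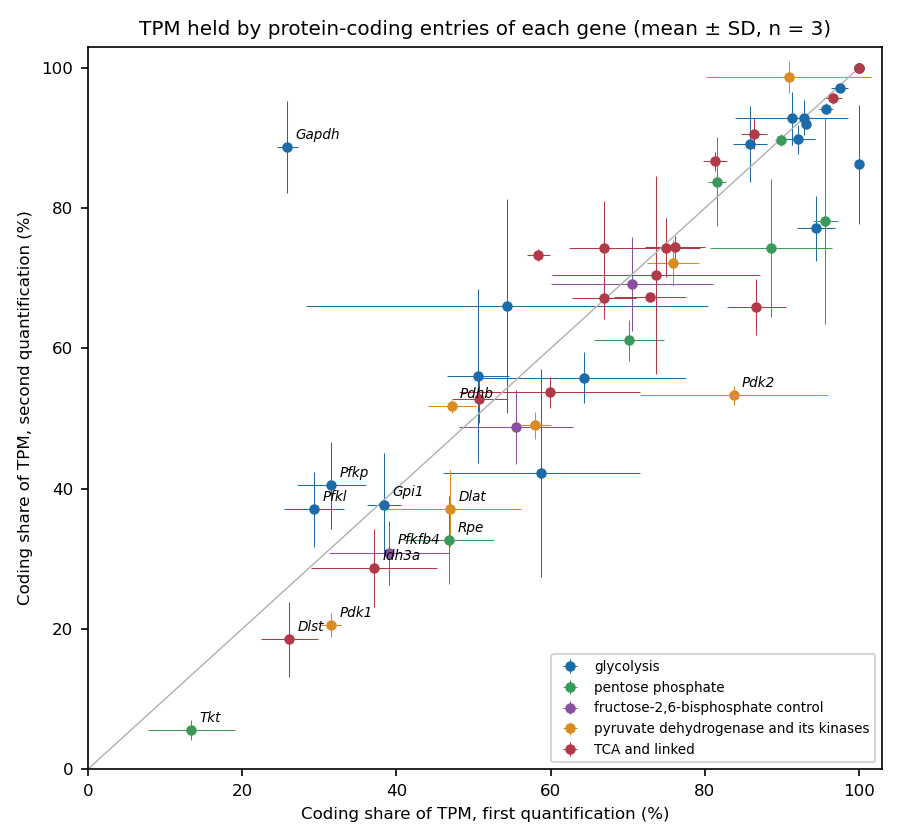
Share of TPM in protein-coding entries of each of the 52 genes in the first (x axis) and second (y axis) quantification, in percent, mean and SD of 3 libraries, coloured by pathway; the line marks equal shares. Gapdh lies far above the line at 25.9% and 88.7%, and Tkt is lowest by both.

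The members were even across the libraries. Their median coefficient of variation was 7.33%, and 5.96% over the 40 members of at least 10 TPM, beside 6.77% over protein-coding genes at that level. By TPM over all entries the widest was Hk2, 1.80 times higher in its highest than in its lowest library. Idh2 followed at 1.47 times, Dlat at 1.45 times and Mdh1 at 1.35 times. The leading coding entries of Idh2 and Dlat were more even. Idh2-201 had 7.76, 7.26 and 7.55 TPM and Dlat-201 had 5.50, 5.75 and 5.55 TPM. Hk2-201, that of Hk2, had 0.57, 0.70 and 0.45 TPM, while the coding share of Mdh1 was 88.1%, 84.8% and 86.2%. The narrowest gene by TPM over all entries was Idh3g at 1.02 times. Of the 13280 genes tested for spread beyond genes of like abundance with edgeR (quasi-likelihood dispersion F test, Benjamini-Hochberg adjusted at 0.05), 0.565% were called, and 0 of the 52 members. At an unadjusted p under 0.05 in that test there was 1 member, Idh3b (adjusted p = 0.774), beside 755 of the 13280 genes. DESeq2 marked 0 members as outlying in dispersion, beside 158 of 22813 genes. The highest library was replicate 1 for 21 members, replicate 2 for 21 and replicate 3 for 10, beside 52.1%, 30.5% and 17.4% of protein-coding genes of at least 10 TPM. The summed TPM of the members was lowest in replicate 3, as were that of the T-cell markers and the share of TPM in nuclear protein-coding genes (35.2%, 34.6% and 33.4%). Of 12 proliferation markers, which summed to 151, 150.1 and 124 TPM with Pcna at 80.8, 95.3 and 84.9 of it, 2 were called for spread by edgeR. These were Mki67 at 6.27, 4.57 and 2.74 TPM (adjusted p = 0.00171) and Top2a at 11.7, 7.5 and 5.28 TPM (adjusted p = 0.0119), both lowest in replicate 3. Of the markers of other cell types that the same edgeR test covered, the erythroid gene Hba-a2 alone was called (adjusted p = 0.0321). Replicate 2 held most of it, 26.1 TPM, against 11.5 for replicate 1 and 8.10 for replicate 3. The erythroid markers together were also highest there, at 97.9 TPM. The part of these measures in the total of the members was not tested.

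Other genes of these pathways were read from lists of 90 genes that are not members. Of 9 transporters of glucose, lactate and their chaperone, 3 reached 10 TPM in all libraries, namely Bsg, Slc2a3 and Slc16a6. Bsg, the chaperone of lactate carriers, had 39.7 ± 0.624 TPM, Slc2a3 and Slc2a1, glucose transporters, had 13.98 ± 1.42 and 10.3 ± 1.41 TPM, and Slc16a6 and the lactate carrier Slc16a1 had 12.9 ± 4.15 and 7.19 ± 0.279 TPM. The lowest were Slc2a6 at 0.327 ± 0.0503 TPM and Slc16a7 at 0.837 ± 0.602 TPM.

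Of 22 further genes of glycolysis and its side branches, 3 reached 10 TPM in all libraries and 8 had a count of 0 in all, among them Hkdc1. The highest after Eno1b was Adpgk, which phosphorylates glucose with ADP, at 20.6 ± 1.31 TPM, followed by the glycerol-3-phosphate dehydrogenase genes Gpd1l and Gpd2 at 14.03 ± 1.03 and 11.2 ± 2.02 TPM and the phosphatase gene G6pc3 at 10.2 ± 0.659 TPM. Of 8 pentose phosphate companions 2 reached 10 TPM, the ribose-phosphate pyrophosphokinase genes Prps2 at 20.9 ± 1.71 and Prps1 at 14.2 ± 2.25 TPM. The transketolase-like genes and G6pd2 were low, Tktl1 at 0.780 ± 0.164 TPM and Tktl2 and G6pd2 at counts of 0. Of 9 genes of pyruvate entry 2 did so, Mpc1 and Mpc2, the subunits of the mitochondrial pyruvate carrier, at 14.1 ± 0.940 and 12.1 ± 1.61 TPM.

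Of 20 TCA companions 13 reached 10 TPM in all libraries. Among them were Sdha, the flavoprotein of succinate dehydrogenase, at 55.3 ± 6.10 TPM, Glud1, glutamate dehydrogenase, at 53.7 ± 5.81 TPM and Acly, ATP citrate lyase, at 50.2 ± 3.54 TPM. Among 22 regulators 14 did so. Besides the splicing factors given above, Txnip, whose protein restrains glucose uptake, had 209 ± 28.6 TPM. The lowest regulators were Mlxipl and Ppargc1a, at 0.0467 ± 0.0643 and 0.120 ± 0.156 TPM. No gene of these lists was called for spread by edgeR (of the 68 that were tested).

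Promoters of 300 bases, from 250 before to 50 after the gene start in RefSeq (GRCm38.p6), were found for 50 of the 52 members. The E-box CACGTG, the letters that Myc and related factors are known to bind, occurred on either strand in 6 of the 50 (12.0%), namely Ldha, Ogdh, Pdk2, Pfkfb2, Pfkfb3 and Pfkm. It occurred in 8.09% of 27025 promoters and in 13.5% of the 4797 of genes of at least 10 TPM. The core of the hypoxia response element, ACGTG, which is also contained in CACGTG, occurred in 20 of the 50 (40%), beside 21.8% of all promoters and 32.0% of those of genes of at least 10 TPM. Pkm, Pgk1, Gapdh, Aldoa and Ldha were among these 20. A match describes the letters in this window and is not a site.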

How the data were processed

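Estimated counts, TPM and FPKM per gene and per transcript entry were deposited by the authors, which per each sample's README rest on alignments to the mm10 transcriptome of GENCODE release M21. They are the first quantification. A second transcript table deposited by the authors holds estimated counts and TPM computed from reads and an index of that release. Neither quantifier is given in the sources used here. The deposited score used was the posterior SD of the count per gene, at most 3.00% of the count of a member, with the posterior mean TPM as an alternative. Reads were assigned to 1 reference genome and parental alleles were not analysed here.

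Members were matched by symbol, and the second quantification was summed per gene. The members and all lists were chosen with earlier results of these data known. Any member may be named; of the other lists, up to the 5 highest and 2 lowest genes were named. A few genes of these lists are not reported here. Isozyme log2 ratios of TPM were tested by exact two-sided sign-flip permutation over the 3 libraries with Benjamini-Hochberg adjustment over 23 pairs. Spread between libraries was tested in edgeR 4.0.16 (R 4.3.3) on rounded estimated counts (filterByExpr, TMM), with an intercept-only quasi-likelihood fit whose residual dispersion was set against the robust abundance trend. The script was tested on simulated data. Copies were sought with BLAST 2.17.0 among annotated transcripts, at 90% identity over 50% of the coding sequence. The 3 pairs of libraries differed by more than sampling noise (chi-square per degree of freedom 5.25, 4.90 and 4.20), so none was counted as a duplicate. A count of 0 allows up to 3 counts, or 1.78e-05%, 2.00e-05% and 1.85e-05% of the 3 libraries. Other settings tried were FPKM, the second quantification, rescaled and posterior mean TPM, CPM, pseudocounts, thresholds, DESeq2 1.42.0 and each replicate left out. Counts per kilobase of the longest coding entry, copies added, and counts for the coding share were added after seeing the data. Python 3.11.15 with numpy 2.4.6, pandas 2.3.3 and matplotlib 3.10.9 was used.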

Additional observations from a re-analysis of the deposited data

How the results depend on the processing

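The median level of the 52 members, 18.99 TPM, was 25.1 in the second quantification, 19.5 FPKM, 55.2 TPM when rescaled to nuclear protein-coding genes and 17.2 in counts per kilobase of the longest coding entry, and 18.8 to 19.3 with a replicate left out. The number of members at the threshold in all libraries ran from 24 (at 20 TPM) to 47 (rescaled TPM). The order of the 5 blocks was the same under each alternative run for it except counts per kilobase, where 3 kept their rank. It was not computed over coding entries alone, so its stability there is not known. The median coding share, 73.3%, was 71.3% in the second quantification, 87.7% in estimated counts, and 71.9% to 75.7% with a replicate left out. The M2 share of Pkm stayed between 93.8% and 95.7% under all alternatives run. Of 23 log2 ratios 3 changed sign: that of Pdk3 to Pdk2 to -0.030 in the second quantification, that of Sucla2 to Suclg2 to -0.036 in CPM not divided by length, and that of Idh3b to Idh3g to -0.16 in the second quantification, to -0.19 in counts per kilobase, and with a replicate left out it ran from -0.019 to 0.087. Members called for spread were 0 under each of the 9 alternatives, with 0 to 4 at an unadjusted p under 0.05 in edgeR. The 4 came without replicate 1, beside 715 of 13469 genes, and the 0 without replicate 2, beside 809 of 13636. No paired analysis was possible because 1 group leaves no second group whose libraries could be paired by number; isozymes were compared within libraries. Depth limits the low isozymes (Hk2, Hk3, Eno2 and Idh1, all under 70 estimated counts), and with 3 libraries of 1 donor record the exact sign-flip permutation test used for isozyme ratios cannot go below p = 0.25.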
